A study of Mus musculus with 6 samples.

Results

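Cytotoxic granule genes were followed in natural killer (NK) cells of the mouse spleen: the granzyme genes Gzma, Gzmb, Gzmc, Gzmk and Gzmm, the perforin gene Prf1, the serglycin gene Srgn, and the serpin genes Serpinb6a, Serpinb6b and Serpinb9. These 10 genes were chosen by name, and 7 of them are among the 8520 genes of the deposited expression table; Gzmc, Gzmk and Gzmm were not analysed here. The series compares 2 populations of untreated C57BL/6Ncr mice aged 6 to 8 weeks, with 3 libraries each. Cells called Ly49G+ here were CD3-, NK1.1+, Ly49G+ and Ly49C/I-, and cells called Ly49I+ were CD3-, NK1.1+, Ly49G- and Ly49C/I+, so both came from the Ly49-bearing part of the NK cell pool. A single antibody marked Ly49C and Ly49I together. Spleens of 20 mice were used, without a statement of how many entered each library; the submitters call the libraries biological replicates, and the p-values below measure the spread between them.

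NK cells kill by releasing granules toward a bound target cell. Perforin opens the target's membrane, and granzymes, a family of serine proteases, enter through it and cleave proteins inside. Serglycin is the proteoglycan that holds granzymes and perforin in the granule, and intracellular serpins of clade B inactivate proteases that leak into the killer cell's own cytosol. Resting mouse NK cells are known for abundant granzyme A RNA, and inhibitory Ly49 receptors restrain release when they bind MHC class I molecules.

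Library totals ran from 33599679 to 40892154 reads, and genes outside the table took 1.43% to 1.71% of a library's reads. The sort was visible in the RNA: Klra7, which encodes Ly49G, had 974 ± 59.9 counts per 1000000 reads of the library (CPM; mean ± SD, 3 libraries) in Ly49G+ and 11.2 ± 0.474 in Ly49I+ cells, and Klra9, which encodes Ly49I, had 78.1 ± 5.29 and 1068 ± 110. NK cell markers were abundant in every library, with the receptor gene Ncr1 at 1906 to 2229 CPM, and 11 of 13 measured markers did not pass the test between populations. Those that passed were Eomes, with more RNA in Ly49G+, and Tbx21, with more in Ly49I+, both described again below among transcription factors. Neither passed without Ly49G+ replicate 1, 2 or 3. The share of all genes that passed, 3.59%, stands beside the marker counts of this paragraph. Markers of other cells differed between the groups. Of 10 measured T cell markers of 17 listed, 6 were higher in Ly49G+, with a summed level of 623.6 to 695.8 CPM against 463.4 to 492.3; Cd3e had 9.26, 18.5 and 11.5 CPM in Ly49G+ and 0.577, 1.05 and 1.20 in Ly49I+. Of 10 measured monocyte, macrophage and dendritic cell markers of 24 listed, 6 were higher in Ly49I+, with a summed level of 1077 to 1193 CPM in Ly49G+ against 1111 to 1894. Itgax, which NK cells also express, took 1037 to 1120 and 827 to 945.5 CPM of these sums. Csf1r had 1.52, 4.46 and 5.92 CPM in Ly49G+ and 41.3, 138 and 31.7 in Ly49I+, and Lyz2 had 6.399, 13.2 and 22.6 against 98.6, 351.9 and 72.5, so Ly49I+ replicate 2 held the highest levels of both. Every gene of the table reached 10.0 CPM in at least 2 libraries, and 5 of the 6 called genes of that list (Csf1r, Adgre4, Ace, Treml4 and Apoe) were under it in every Ly49G+ library, as were 3 of the 6 called T cell markers (Cd3d, Cd3e and Trac) in every Ly49I+ library. They entered the table only through the group where they are high, so these counts are descriptions. With a robust prior 3 of the monocyte to dendritic list were called, Csf1r (adjusted p = 0.0910), Lyz2 (0.125) and Ace (0.0562) being lost at the same differences. The T cell count was 5 without the intensity trend in the variance model and without Ly49G+ replicate 1, 2 or 3. The part of these markers' cells in the results below was not tested, and in sorted populations fewer cells of a kind and less RNA per cell cannot be told apart.

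The granule genes lie on 3 chromosomes of GRCm38.p6 (mm10). Gzma (NCBI gene 14938) spans chr13:113093824-113100981 on the minus strand, Gzmb (14939) chr14:56258836-56262334 on the minus strand, Prf1 (18646) chr10:61297751-61304684 on the plus strand and Srgn (19073) chr10:62493833-62527445 on the minus strand. The serpins share a cluster on chromosome 13: Serpinb6b (20708) at chr13:32956811-32979067 and Serpinb9 (20723) at chr13:32997061-33017955, both on the plus strand and 17994 bases apart, and Serpinb6a (20719) at chr13:33917918-34002794 on the minus strand. No stretch of 100 bases in a member's transcripts was found in another gene's transcripts. Exons of Serpinb6a overlap genes on the opposite strand, Nqo2 and Ripk1 among them; the libraries were stranded, but whether reads were counted by strand is not stated.

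Promoter windows from RefSeq (build GRCm38.p6, 250 bases before to 50 after a start site) are shown for the 3 members that passed the test between populations and for Gzma, the most abundant. They are written 5′ to 3′ on the gene's strand, and capitals mark matches, on either strand, to the motifs described next. The windows are chr14:56262285-56262584 (minus strand) for Gzmb, chr10:61297586-61297885 (plus) for Prf1, chr13:113100932-113101231 (minus) for Gzma and chr13:32965011-32965310 (plus) for Serpinb6b. For Prf1 and Serpinb6b the start site used lies inside the gene's full span.
Gzmb: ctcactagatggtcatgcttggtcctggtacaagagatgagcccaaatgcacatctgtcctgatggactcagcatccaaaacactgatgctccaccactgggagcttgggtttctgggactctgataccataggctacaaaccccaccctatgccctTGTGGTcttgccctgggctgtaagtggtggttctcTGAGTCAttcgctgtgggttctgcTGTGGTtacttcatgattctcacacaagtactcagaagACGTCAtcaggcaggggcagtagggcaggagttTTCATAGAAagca
Prf1: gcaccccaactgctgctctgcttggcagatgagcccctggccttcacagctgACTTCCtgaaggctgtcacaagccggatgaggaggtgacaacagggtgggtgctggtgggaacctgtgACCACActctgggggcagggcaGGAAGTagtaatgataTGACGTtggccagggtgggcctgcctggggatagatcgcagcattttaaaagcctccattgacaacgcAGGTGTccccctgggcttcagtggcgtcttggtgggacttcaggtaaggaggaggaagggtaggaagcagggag
Gzma: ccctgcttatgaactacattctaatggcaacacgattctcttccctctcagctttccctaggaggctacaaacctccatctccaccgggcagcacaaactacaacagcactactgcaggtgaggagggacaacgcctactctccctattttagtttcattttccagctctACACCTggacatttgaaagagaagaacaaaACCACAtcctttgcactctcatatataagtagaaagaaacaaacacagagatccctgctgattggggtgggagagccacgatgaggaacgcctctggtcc
Serpinb6b: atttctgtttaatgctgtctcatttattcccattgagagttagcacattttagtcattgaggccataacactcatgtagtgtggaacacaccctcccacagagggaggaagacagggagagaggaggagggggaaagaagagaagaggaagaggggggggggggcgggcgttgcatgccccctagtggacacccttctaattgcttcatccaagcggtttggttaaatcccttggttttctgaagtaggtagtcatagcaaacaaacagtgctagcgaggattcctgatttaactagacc

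The motifs were short core sequences of factor families that act in lymphocytes: the RUNX core TGTGGT and its form TGCGGT, the T-box core AGGTGT, the AP-1 site TGAGTCA, the CRE core TGACGT, the ETS core GGAAGT and the STAT site TTCNNNGAA. The Gzmb window held the RUNX core at -93 and -34 from the start site, the AP-1 site at -58, a CRE core at 5 and a STAT site at 38. In the Prf1 window a RUNX core began at -130, a T-box core at -24, a CRE core at -92 and ETS cores at -198 and -108. The Gzma window had a T-box core at -80 and a RUNX core at -50, and no listed motif was present in the letters of the Serpinb6b window. Of 32851 RefSeq promoter windows of this length, 16.8% held TGTGGT, 6.45% TGCGGT, 13.7% the T-box core, 5.20% the AP-1 site, 7.51% the CRE core, 23.8% the ETS core and 8.30% the STAT site. Among the 9 windows of the 7 measured members, 5 held TGTGGT, 0 TGCGGT, 2 the T-box core, 1 the AP-1 site, 3 the CRE core, 2 the ETS core and 2 the STAT site. The motif map shows the windows side by side; a match is a string of letters and not a measured binding site.

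**Figure D1:**
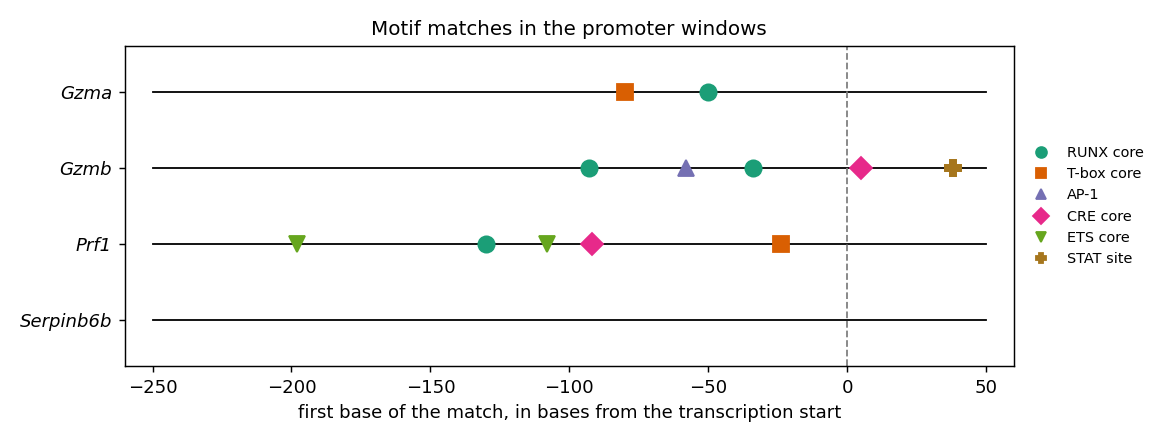
Matches to 6 of the motifs in the promoter windows of Gzma, Gzmb, Prf1 and Serpinb6b; the horizontal axis is the first base of a match in bases from the RefSeq start site (dashed line), and each horizontal line is a window from 250 bases before to 50 after it. The Gzmb and Prf1 windows hold 5 marks each, the Gzma window holds 2 and the Serpinb6b window none.

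Between the populations, RNA for granzyme B and perforin was higher in Ly49I+ cells and RNA for Serpinb6b was higher in Ly49G+ cells, each by 1.31-fold to 1.41-fold. The test was limma's linear model on the deposited log2 CPM over all 8520 genes, two-sided, with Benjamini-Hochberg adjustment at 0.05, and differences are given as Ly49G+ minus Ly49I+ on the log2 scale ± SE. It called 306 genes, 3.59% of the table, of which 1.82% of the table were higher in Ly49G+ and 1.77% higher in Ly49I+. Of the 7 members, 1 was called higher in Ly49G+, 2 were called higher in Ly49I+ and 4 did not pass. The libraries of the populations did not overlap for 4 of the 7 members (Gzmb, Prf1, Serpinb6b and Serpinb9), against 25.8% of all genes. The median difference of the members was -0.12, against -0.016 over all genes. Leaving out Ly49G+ replicate 2 left 0 members called and leaving out Ly49G+ replicate 3 left 1, with 94 and 168 genes called in the table.

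**Figure D2:**
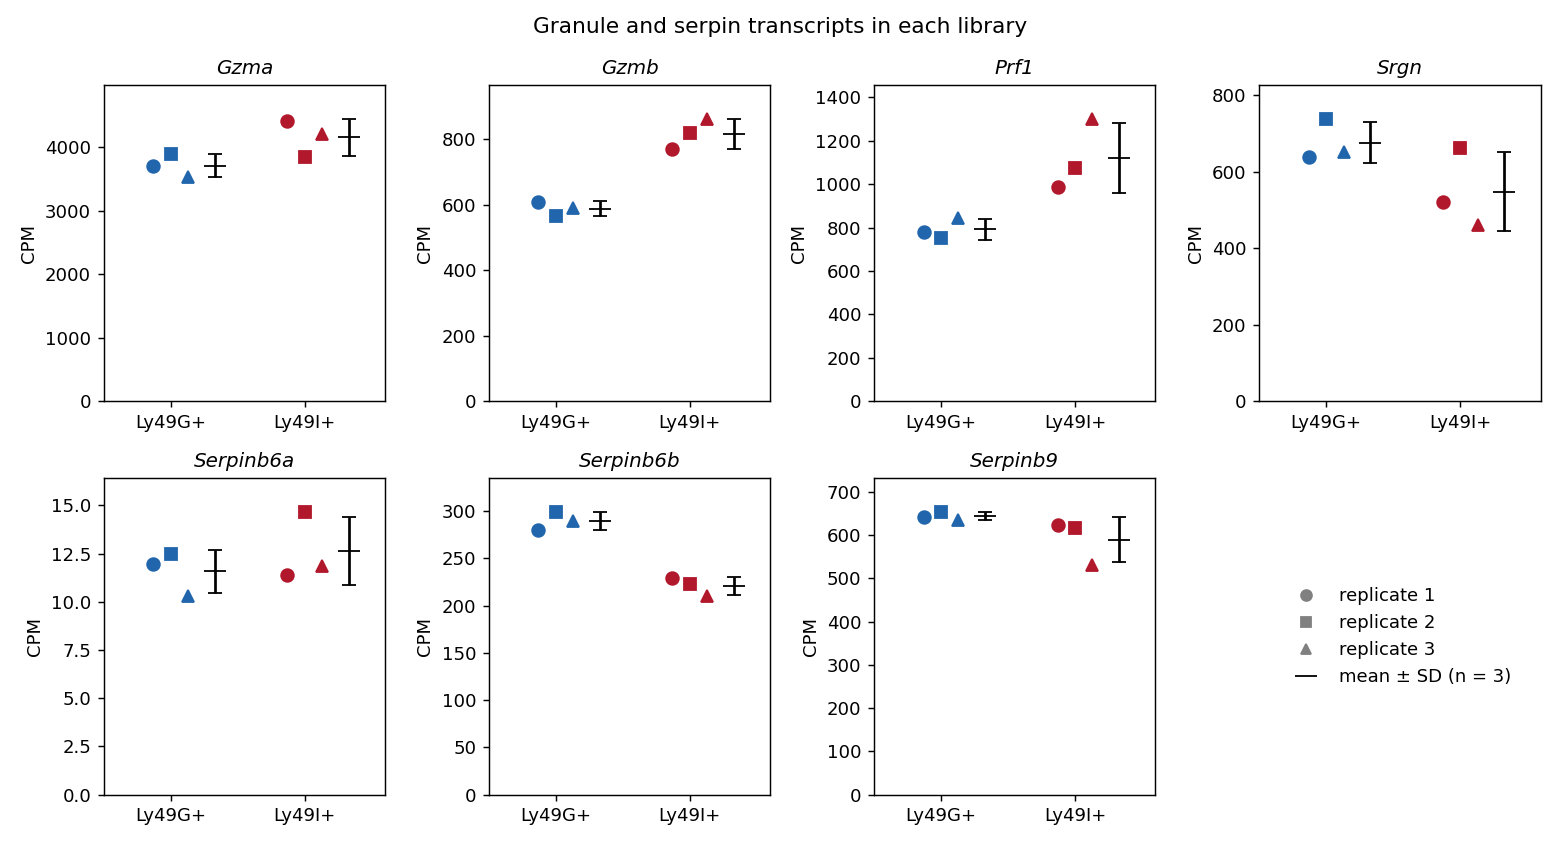
CPM of each measured member in each library; blue symbols are Ly49G+ and red symbols Ly49I+, the symbol shape gives the replicate number, and the black mark is the mean ± SD of 3 libraries, with every vertical axis starting at 0. Gzmb and Prf1 are higher in all Ly49I+ libraries than in any Ly49G+ library, Serpinb6b and Serpinb9 are lower, and Gzma, Srgn and Serpinb6a overlap.

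Gzma, a tryptase-like protease, was the ninth most abundant gene of the table by mean CPM. Its levels were 3699, 3882 and 3520 CPM in Ly49G+ replicates 1, 2 and 3 (3701 ± 181) and 4411, 3834 and 4200 CPM in Ly49I+ (4148 ± 292). Ly49I+ replicate 2 lay below Ly49G+ replicate 2, so the groups overlapped. The difference was -0.16 ± 0.09 (95% interval -0.36 to 0.03, adjusted p = 0.315), and between 124296 and 163858 reads per library stood behind these values. The interval contains no change as well as a level in Ly49I+ cells higher by 0.36 on the log2 scale.

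Gzmb encodes the protease that cleaves after aspartate and activates caspases in the target. Its levels were 609.8, 566.5 and 589.0 CPM in Ly49G+ (588 ± 21.6) and 770.1, 818.7 and 861.1 CPM in Ly49I+ (817 ± 45.5), from 20467 to 33597 reads. The lowest Ly49I+ library was above the highest Ly49G+ library. The difference of -0.47 ± 0.07 (adjusted p = 0.00585) corresponds to a level 1.39-fold higher in Ly49I+ (95% interval 1.24 to 1.55). Without Ly49G+ replicate 2 the difference was -0.44 and the adjusted p 0.0569, which missed the threshold.

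Prf1 encodes the pore-forming protein. Its levels were 779.8, 751.0 and 844.6 CPM in Ly49G+ (792 ± 47.9) and 985.6, 1075 and 1300 CPM in Ly49I+ (1120 ± 162), from 26202 to 50716 reads. All Ly49I+ libraries were above all Ly49G+ libraries, and they were spread more widely, with replicate 3 the highest. The difference of -0.49 ± 0.10 (adjusted p = 0.0253) corresponds to 1.41-fold (95% interval 1.20 to 1.65). Perforin kept its direction but lost its call without Ly49G+ replicate 1 (-0.48, adjusted p = 0.113), 2 (-0.46, 0.168) or 3 (-0.54, 0.0633), without Ly49I+ replicate 2 (-0.52, 0.0540), and without the intensity trend in the variance model (adjusted p = 0.0691).

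Srgn, the serglycin gene, had 638.8, 738.2 and 651.7 CPM in Ly49G+ (676 ± 54.0) and 520.5, 662.7 and 461.5 CPM in Ly49I+ (548 ± 103). Ly49I+ replicate 2 lay within the Ly49G+ range, and the other 2 Ly49I+ libraries lay below it. That library also had the highest Csf1r and Lyz2, at 138 and 351.9 CPM. The difference was 0.32 ± 0.12 (95% interval 0.05 to 0.59), with an adjusted p of 0.192. With the replicate number as a block the adjusted p was 0.0137, and without Ly49I+ replicate 2 the difference was 0.46 with an adjusted p of 0.0392, so the call for serglycin depends on the block and on that library.

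Serpinb6b encodes an inhibitor of mouse granzyme A. It had 280.2, 298.8 and 289.9 CPM in Ly49G+ (289.6 ± 9.33) and 229.1, 223.1 and 210.7 CPM in Ly49I+ (221 ± 9.38), from 7934 to 10816 reads. The groups were far apart relative to their spread, with the opposite order to granzyme B and perforin. The difference of 0.39 ± 0.07 (adjusted p = 0.0117) corresponds to 1.31-fold higher in Ly49G+ (95% interval 1.18 to 1.46). Without Ly49G+ replicate 2 it was 0.37 with an adjusted p of 0.0942, and without Ly49G+ replicate 3 it was 0.39 with an adjusted p of 0.0596.

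Serpinb9 encodes the inhibitor of granzyme B. It had 642.1, 653.1 and 634.6 CPM in Ly49G+ (643 ± 9.34) and 623.4, 615.6 and 529.9 CPM in Ly49I+ (589.6 ± 51.9). Every Ly49I+ library was below every Ly49G+ library, with replicates 1 and 2 close to the Ly49G+ range and replicate 3 well under it. The difference of 0.13 ± 0.08 (95% interval -0.05 to 0.30) did not pass the test (adjusted p = 0.375).

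Serpinb6a, whose product inhibits cathepsin G, was near the lowest levels in the table. It had 11.9, 12.5 and 10.3 CPM in Ly49G+ (11.6 ± 1.11) and 11.4, 14.6 and 11.8 CPM in Ly49I+ (12.6 ± 1.77), from 385 to 599 reads. The groups overlapped, and the difference was -0.12 ± 0.16 (95% interval -0.47 to 0.23, adjusted p = 0.689). Ly49I+ replicate 2 was again the highest, and without it the difference was -0.0091.

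**Figure D3:**
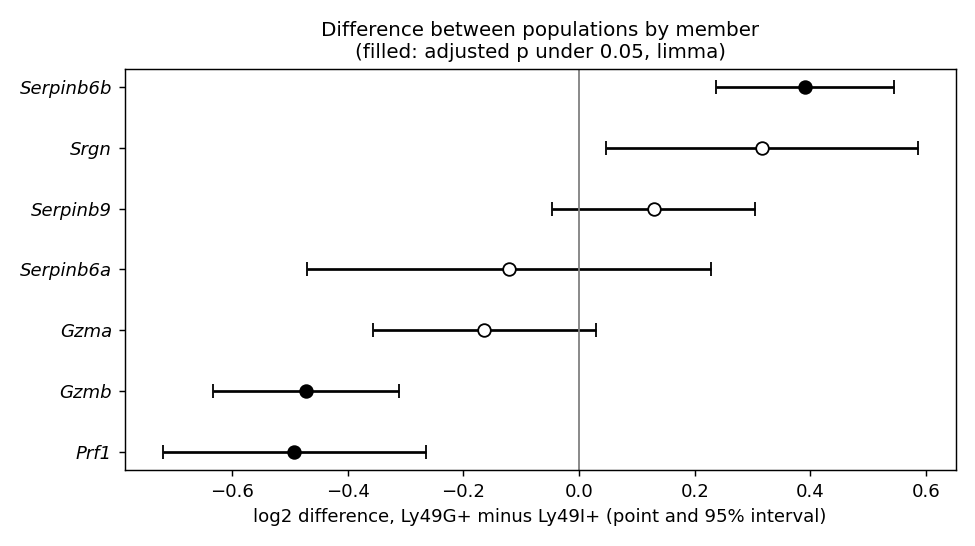
Log2 difference of Ly49G+ minus Ly49I+ for each measured member, with its 95% interval from limma; filled points have an adjusted p under 0.05. Gzmb (-0.47) and Prf1 (-0.49) lie to the left of 0 and Serpinb6b (0.39) to the right, while the intervals of Gzma, Serpinb6a and Serpinb9 contain 0.

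To compare levels between genes, CPM were divided by the length in kilobases of each gene's longest coding transcript. In Ly49I+ cells the order of levels per kilobase was Gzma (4165 ± 293), Gzmb (569 ± 31.7), Prf1 (453 ± 65.5), Srgn (317 ± 59.9), Serpinb9 (170 ± 14.9), Serpinb6b (101 ± 4.28) and Serpinb6a (7.63 ± 1.07). In Ly49G+ cells Gzma (3715 ± 182) and Gzmb (409.8 ± 15.1) again led, but Srgn (392 ± 31.3) stood above Prf1 (320 ± 19.4), followed by Serpinb9 (185 ± 2.69), Serpinb6b (132 ± 4.26) and Serpinb6a (6.995 ± 0.674). Gzmb and Srgn in Ly49G+ cells differed by less than their spread. With the length of all merged exons, Srgn (308 ± 24.6) and Prf1 (306 ± 18.6) in Ly49G+ cells also did.

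The summed RNA of both granzymes and perforin is given as a description, since Gzma, which did not pass the test, makes up most of it. Gzma, Gzmb and Prf1 summed to 4954 to 5200 CPM in Ly49G+ (5081 ± 123) and to 5727 to 6361 CPM in Ly49I+ (6085 ± 325), and these ranges did not overlap. Within that sum, Gzma made up 72.8% ± 1.805 in Ly49G+ and 68.2% ± 2.95 in Ly49I+, Gzmb 11.6% ± 0.603 and 13.4% ± 0.908, and Prf1 15.6% ± 1.33 and 18.4% ± 2.25. The Gzma and Prf1 shares overlapped between the populations and the Gzmb shares did not. The 3 serpins summed to 934.2 to 964.4 CPM in Ly49G+ and to 752.4 to 863.9 in Ly49I+. All 7 members together took 0.654% to 0.690% of a Ly49G+ library and 0.724% to 0.757% of a Ly49I+ library.

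Ratios of members within a library are not moved by scaling between libraries. Of 4 ratios compared, 3 had groups that did not overlap. Gzmb and Serpinb9 each separated the populations, in opposite directions, so the separation of their ratio and its p were fixed in advance. Gzmb to Gzma and Serpinb6b to Serpinb6a each set a called member against a gene that was not called. These ratios are descriptions and not results apart from the calls of Gzmb and Serpinb6b. The ratio of Gzmb to Gzma was 0.165, 0.146 and 0.167 in Ly49G+ and 0.175, 0.214 and 0.205 in Ly49I+, a log2 difference of -0.31. The ratio of Gzmb to the gene of its inhibitor, Serpinb9, was 0.9497, 0.867 and 0.928 in Ly49G+ (0.915 ± 0.0427) and 1.24, 1.33 and 1.63 in Ly49I+ (1.40 ± 0.203), a log2 difference of -0.60. The CPM scale does not account for transcript length. On it, Gzmb was below Serpinb9 in each Ly49G+ library and above it in each Ly49I+ library. Per kilobase of the longest coding transcript, Gzmb was above Serpinb9 in every library of both populations. The means per kilobase were 409.8 against 185 in Ly49G+ and 569 against 170 in Ly49I+. The ratio of Serpinb6b to its paralog Serpinb6a was 23.5, 24.0 and 28.1 in Ly49G+ and 20.1, 15.2 and 17.8 in Ly49I+, a log2 difference of 0.51. Each of these had p = 0.1 in a two-sided exact permutation test (0.133 adjusted over the 4 ratios), which is the smallest p that 3 against 3 libraries allow.

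The ratio of Gzmb to Prf1 stood close to 0.74 in both populations. It was 0.782, 0.754 and 0.697 in Ly49G+ (0.745 ± 0.0431) and 0.781, 0.762 and 0.662 in Ly49I+ (0.735 ± 0.0637), with a log2 difference of 0.02 and p = 0.8 in the exact permutation test (0.8 adjusted). Without Ly49G+ replicate 1 the difference was -0.016 and without Ly49I+ replicate 3 it was -0.053. In the plot of ratios the libraries of these genes interleave, while the other 3 ratios separate.

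**Figure D4:**
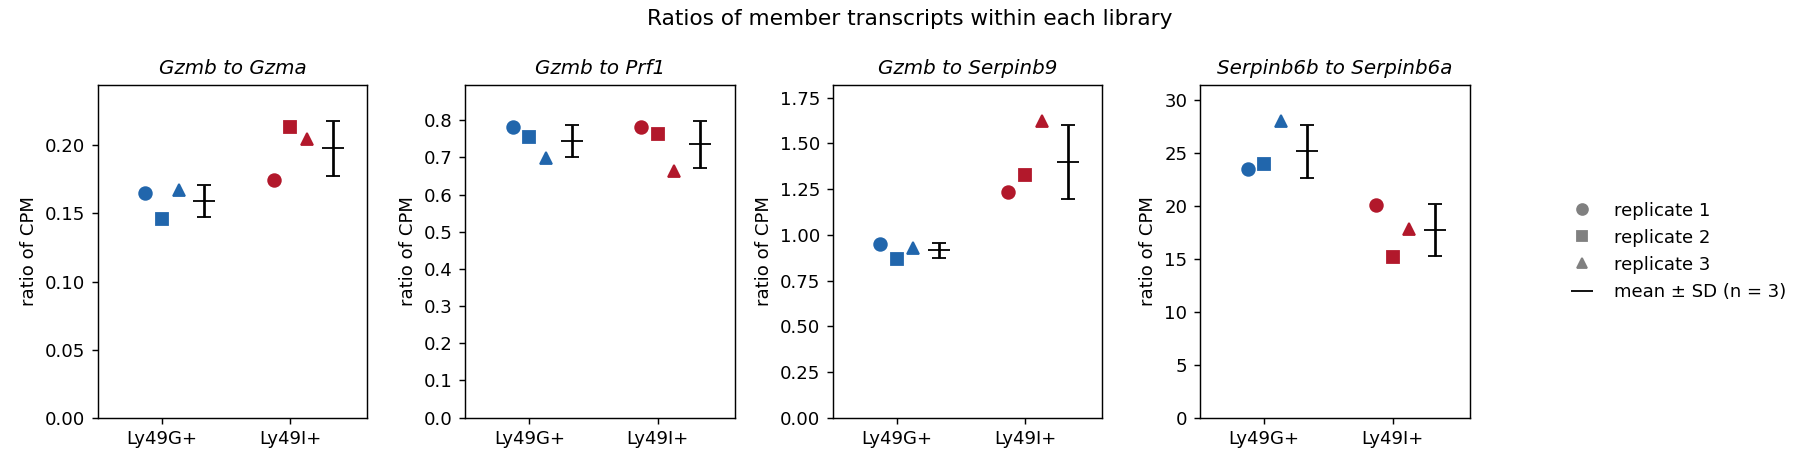
Ratio of CPM of paired members within each library; blue symbols are Ly49G+, red symbols Ly49I+, shapes are replicate numbers, black marks are the mean ± SD of 3 libraries, and the vertical axes start at 0. Gzmb to Prf1 overlaps between populations (means 0.745 and 0.735), and Gzmb to Serpinb9 ranges from 0.867 to 0.9497 in Ly49G+ and from 1.24 to 1.63 in Ly49I+.

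Across the 6 libraries, Gzmb and Prf1 levels had a Pearson r of 0.95 on the log2 scale, Gzmb and Serpinb6b -0.999, Prf1 and Serpinb9 -0.905, and Gzmb and Gzma 0.664. These are descriptions over 6 points that contain the difference between populations, and pairs that differ between the populations share it. Outside the members, the genes whose pattern was most like that of Gzmb were Cpne7 (r = 0.995), Smarcd3 (0.995) and Nuak2 (0.994), all of them called higher in Ly49I+, and 114 genes had an r above 0.95 with it. Most like Prf1 were Dnajc4 (0.996), Niban2 (0.995) and Ric8a (0.995), none of which passed the test, among 170 genes above 0.95. Most like Serpinb6b were Cmah (0.998), which was called higher in Ly49G+, Trbc1 (0.997) and Ptpn22 (0.996), which were not called, among 169.

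Genes within 500000 bases of a member were examined because granzymes and clade B serpins sit in clusters of relatives. Around Gzma, 6 of 13 neighbours were in the table and 2 were called higher in Ly49I+. The share called over all genes, 3.59%, stands beside this and the neighbour counts below. Gpx8, of the glutathione peroxidase family, had 6.28, 5.92 and 4.88 CPM in Ly49G+ and 16.0, 15.7 and 16.7 in Ly49I+ (difference -1.51 ± 0.17, adjusted p = 0.00111). Cdc20b had 10.3, 17.3 and 13.2 CPM against 35.0, 29.4 and 31.9 (-1.26 ± 0.17, adjusted p = 0.00301). Gpx8 was under 10 CPM in every Ly49G+ library and entered the table only through Ly49I+. The RefSeq model of Cdc20b, chr13:113034975-113121019, contains all of Gzma and of Gpx8 (chr13:113042757-113046430). How the authors' counting divided reads among these genes cannot be told from the table, so the Cdc20b and Gpx8 values are uncertain.

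Around Gzmb, 8 of 29 neighbours were in the table and Cma1 was the only call. Cma1, a chymase gene 314161 bases away in the same protease cluster, had 154 ± 22.3 CPM in Ly49G+ and 226 ± 24.0 in Ly49I+ (-0.55 ± 0.11, adjusted p = 0.0225). The call for Cma1 was lost without the intensity trend (adjusted p = 0.0652), without Ly49G+ replicate 1 (0.0975) and without Ly49G+ replicate 3 (0.0900). In the serpin cluster, Serpinb9b, 9459 bases from Serpinb9, had 79.9 ± 1.10 CPM in Ly49G+ and 98.2 ± 8.34 in Ly49I+, the opposite order to Serpinb9 and Serpinb6b. Its difference of -0.29 ± 0.08 had an adjusted p of 0.0819, and 0.0274 with the replicate block. Near Prf1, 0 of 8 measured neighbours were called, and near Srgn 1 of 11 was, Tet1, a DNA demethylase gene (0.58 ± 0.12, adjusted p = 0.0236). Tet1 lost its call without Ly49G+ replicate 1 (adjusted p = 0.0814), 2 (0.134) or 3 (0.0834) and without Ly49I+ replicate 3 (0.0527).

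Calls among genes that process, store and release the granule proteins are given beside the share called over all genes, 3.59%. Of 23 measured genes for protease processing, sorting and the granule membrane, 0 were called by limma, 7 had an unadjusted p under 0.05 (1687 of 8520 over all genes, 19.8%), and the median difference was -0.04. Ctsc, the cathepsin that activates progranzymes, had 199 ± 20.4 CPM in Ly49G+ and 226 ± 4.92 in Ly49I+ (-0.19 ± 0.08, adjusted p = 0.252). Nkg7, a granule membrane protein gene needed for exocytosis, had 754 ± 60.4 against 927 ± 128 (-0.29 ± 0.11, adjusted p = 0.171, and 0.0134 with the replicate block). Lamp1, whose product reaches the surface on release, had 206 ± 7.42 against 187 ± 26.8 (0.14 ± 0.10, adjusted p = 0.421). With the replicate block 5 genes of this list were called, all higher in Ly49I+ (Ctsd, Cst3, Nkg7, Laptm5 and Clcn7), and without Ly49I+ replicate 1, 5 were called. Over all 8520 genes the block called 993 and the fit without Ly49I+ replicate 1 called 644. Cst3 is also on the list of monocyte to dendritic markers, with 8.45, 6.31 and 7.51 CPM in Ly49G+ and 7.80, 16.1 and 16.4 in Ly49I+. Being under 10 CPM in every Ly49G+ library, Cst3 entered the table only through Ly49I+.

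Serglycin's sugar chains are built by a set of transferases, of which 14 were measured. By limma 0 of them were called, 4 of 14 had an unadjusted p under 0.05 against 19.8% of all genes, and the median difference was -0.14. The replicate block called 2, Xylt1, which starts the chain, and Ndst2, which sulfates heparin chains, both higher in Ly49I+, and leaving out Ly49I+ replicate 1 called 1. Over all 8520 genes these fits called 993 and 644. Xylt1 was under 10 CPM in every Ly49G+ library and entered the table only through Ly49I+, so its call is a description. Of 30 measured exocytosis genes 1 was called, Syt11, a synaptotagmin, at 33.1 ± 1.14 CPM in Ly49G+ and 45.1 ± 2.50 in Ly49I+ (-0.44 ± 0.09, adjusted p = 0.0191). That count is near the share called over all genes, 3.59%. By limma 3 of the 30 (10%) had an unadjusted p under 0.05, against 19.8% of all genes. The block called 2 of the 30, Syt11 and Rab27b, against 993 of 8520 over all genes. Of this list 0 were called without Ly49G+ replicate 1, 2 or 3 or without Ly49I+ replicate 2. Unc13d, which primes granules for fusion, had a difference of -0.11 ± 0.14 (adjusted p = 0.682), and Rab27a, which docks them, -0.03 ± 0.08 (0.879). The median of this list was -0.03, and the medians of all 3 lists stand beside -0.016 for all genes.

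Of the other granzyme and serpin genes, 4 of 33 listed were measured, all of them serpins, and 0 passed by limma, with 3 of 4 at an unadjusted p under 0.05 against 19.8% of all genes and a median of 0.01. With the replicate block 2 of the 4 passed, Serpinb9b and Serpina3g, against 993 of 8520 over all genes. Among death ligands and secreted effectors, 3 of 9 measured genes were called, all higher in Ly49G+, as were 1.82% of all genes. By limma 5 of the 9 had an unadjusted p under 0.05, against 19.8% of all genes. Csf2, the GM-CSF gene, had 15.7 ± 0.929 CPM in Ly49G+ and 7.24 ± 0.613 in Ly49I+ (1.11 ± 0.15, adjusted p = 0.00295), and, being under 10 CPM in every Ly49I+ library, it entered the table only through Ly49G+. The chemokine gene Xcl1 had 118 ± 13.2 against 76.8 ± 11.8 (0.63 ± 0.12, adjusted p = 0.0189) and the lymphotoxin beta gene Ltb 40.4 ± 5.55 against 26.0 ± 4.60 (0.64 ± 0.15, 0.0404). Fasl, the ligand of the death receptor Fas, had 309 ± 16.5 and 316 ± 23.7 CPM (-0.03 ± 0.08, adjusted p = 0.864). The list's median was 0.08. The block called 5 of the 9 genes, against 993 of 8520 over all genes. Without the intensity trend, without Ly49G+ replicate 2 or without Ly49G+ replicate 3, 1 was called.

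Transcription factors known to act on granzyme or perforin genes moved in both directions. Of 39 measured, 4 had more RNA in Ly49G+ cells, 4 had more in Ly49I+ cells and 31 failed the test, with a median of -0.04. Among all genes tested, 1.82% and 1.77% passed in these directions. By limma 15 of the 39 had an unadjusted p under 0.05, against 19.8% of all genes. The list was chosen with earlier results of these data known. The T-box factors, which drive cytotoxic genes in NK cells, had opposite signs. Eomes had 1391 ± 14.05 CPM in Ly49G+ and 1059 ± 16.3 in Ly49I+ (0.39 ± 0.07, adjusted p = 0.00893), and Tbx21, the T-bet gene, 366 ± 17.2 and 494 ± 71.8 (-0.42 ± 0.10, adjusted p = 0.0441). Prdm1, the Blimp-1 gene, was also higher in Ly49I+, at 143 ± 6.55 CPM against 113 ± 6.60 (-0.34 ± 0.08, adjusted p = 0.0375), as were Id2 (-0.42 ± 0.08, 0.0139) and Zeb2 (-0.40 ± 0.09, 0.0465). Higher in Ly49G+ were Ikzf2 (1.07 ± 0.11, 0.000586), Myb (0.86 ± 0.09, 0.000977) and the early-stage factor Tcf7 (0.63 ± 0.11, 0.0104). Runx3, which binds RUNX sites, had 259 ± 32.6 and 267 ± 27.1 CPM (-0.04 ± 0.11, adjusted p = 0.841). The count of 8 became 12 with the replicate block, 5 without the intensity trend, 3 without Ly49G+ replicate 1, and 2 without Ly49G+ replicate 2 or 3. Over all 8520 genes the same fits called, in this order, 993, 236, 155, 94 and 168. Without Ly49G+ replicate 1, 2 or 3, Eomes had an adjusted p of 0.0519, 0.0737 and 0.0516, and Tbx21 of 0.171, 0.209 and 0.0975.

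Stage genes of NK maturation differed in the same libraries, and their lists share genes with those above. The factors Tbx21, Zeb2 and Prdm1 and the neighbour Cma1 are also on the late-stage list. The factor Tcf7 and the effectors Xcl1 and Ltb are also on the earlier-stage list, so these calls are counted again here. Itgax is also on the monocyte to dendritic list and Cd28, of the earlier stage, on the T cell list. Of 17 genes of the late, CD11b+ stage 15 were higher in Ly49I+ (median -0.55), including Cx3cr1 (-2.06 ± 0.09) and Klrg1 (-1.26 ± 0.07). Over all genes 1.77% were called higher in Ly49I+. Itgax, of the same list, had the opposite sign (0.26 ± 0.08, adjusted p = 0.0985) with groups that did not overlap. Of 19 measured genes of the earlier, CD27+ stage 12 were higher in Ly49G+ (median 0.63), including Il7r (1.99 ± 0.13) and Cd160 (0.92 ± 0.08). Over all genes 1.82% were called higher in Ly49G+. Gzmb (-0.47) and Prf1 (-0.49) had the sign of the late-stage median and Serpinb6b (0.39) that of the earlier stage, with smaller sizes. These lists were chosen with results of the same libraries known and are not independent evidence of a stage. The late-stage count was 7, 7 and 8 without Ly49G+ replicate 1, 2 and 3 and 9 without the intensity trend, and the earlier-stage count was 7 without Ly49G+ replicate 2 or 3. Without Ly49I+ replicate 2, the late-stage count was 10. With the replicate block 16 late-stage genes were called higher in Ly49I+ and Itgax higher in Ly49G+, and 17 earlier-stage genes were called higher in Ly49G+. Over all 8520 genes the block called 508 higher in Ly49I+ and 485 higher in Ly49G+.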

How the data were processed

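RNA from 6 libraries of sorted splenic NK cells was sequenced. Per the labels' protocols, each stranded library began with 0.4 µg of total RNA and was read as pairs of 100 bases. The submitters' processing notes name build mm10, limma, STAR 2.3.0 and CASAVA 1.8.2; the counter, annotation and low-count filter were not given in sources used here. The authors deposited log2 CPM of 8520 genes with the formula of limma's voom (0.5 added to each count, 1 to the total). Undoing it gave whole reads for 100% of values within 0.001 read, from which library totals, reads and linear CPM were taken; the smallest count in the table was 8, and the members had 385 reads or more in each library. NCBI gene numbers were matched to RefSeq names (GRCm38.p6) for 8429 genes; 91 had none.

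The populations were compared with limma 3.58.1 (R 4.3.3), fitted to the log2 CPM as deposited with an intensity trend and no weights, all genes together, and p-values adjusted by Benjamini-Hochberg at 0.05. The steps were tested on simulated data. Python 3.11.15 with pandas 2.3.3, numpy 2.4.6 and matplotlib 3.10.9 served for tables and plots. The members and gene lists were chosen with earlier results of these data known. Lists covered protease processing and granule membrane, serglycin chain synthesis, exocytosis, other granzymes and serpins, death ligands and effector cytokines, transcription factors, the CD11b+ and CD27+ stages, and markers of NK, T, B and plasma, monocyte to dendritic, plasmacytoid dendritic, neutrophil and mast, erythroid, platelet, and stromal cells. Named are all measured members, the up to 4 called genes with the smallest adjusted p in a list, 10 genes set by name, Klra7 and Klra9, the 3 genes most like each called member, defining markers of other cells, and neighbours in a member's cluster; Id2, Zeb2, Tet1, Gpx8, Cdc20b, Itgax, the low marker genes and the genes called only under the block were named after their values were seen.

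Replicate numbers come from the labels, which do not say what they share. Deviations from the group mean correlated between libraries of the same number (r = 0.371, 0.114 and 0.156 for numbers 1, 2 and 3), which met the rule for pairing set at 0.1. Libraries of unlike number reached as much: Ly49G+ replicate 3 and Ly49I+ replicate 2 had 0.359, and Ly49G+ replicate 2 and Ly49I+ replicate 1 had 0.115. These values do not establish pairing for numbers 2 and 3. The fit with the number as a block is given where it changed a call of a member or the count of a list of related genes. Alternatives were no trend, a robust prior, voom weights, median centring, quantile normalization, log2(CPM + 1), a minimum mean of 4, the block, and each library left out.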

Additional observations from a re-analysis of the deposited data

How the results depend on the processing

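All 7 members kept their direction under every alternative run (14 each, 13 for Serpinb6a, which the minimum mean removes). Gzma, Serpinb6a and Serpinb9 did not pass in any, with adjusted p-values of 0.195 to 0.525, 0.508 to 0.985 and 0.200 to 0.760. Leaving out 1 library at a time gave differences of -0.22 to -0.12 for Gzma, -0.51 to -0.43 for Gzmb, -0.58 to -0.38 for Prf1, 0.20 to 0.46 for Srgn, -0.19 to -0.0091 for Serpinb6a, 0.36 to 0.42 for Serpinb6b and 0.054 to 0.17 for Serpinb9. Gzmb passed in 13 of 14, Serpinb6b in 12, Prf1 in 9 (not without the trend, at -0.49) and Srgn in 2: with the replicate block its value of 0.32 passed, and the block changed no other member's call. Members called ran from 0 to 3 over left-out libraries and genes called from 94 to 644, against 993 with the replicate block and 306 without it. In that order of settings (left out, replicate block), called genes numbered 0 to 5 and 5 for protease processing, 0 to 1 and 2 for chain synthesis, 0 to 1 and 2 for exocytosis, 0 and 2 for other serpins, and 1 to 4 and 5 for effector cytokines (1 without the trend). Left-out ranges were 2 to 9 for transcription factors (5 without the trend), 7 to 15 for the CD11b+ stage (9 without the trend) and 7 to 13 for the CD27+ stage. The Gzmb to Prf1 log2 ratio difference ran from -0.053 to 0.067, changing sign without Ly49G+ replicate 1 (-0.016) or Ly49I+ replicate 3 (-0.053); with pairs kept together (replicate block) it was 0.02, with an exact p of 0.75. The other 3 ratios kept their sign. Apart from fewer libraries or genes in a fit, the cause of these changes was not tested. Serpinb6a, at 385 to 599 reads per library, had the lowest depth of the members.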

Other observations

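Few markers of further cell types were among the genes analysed. Of 14 B and plasma cell markers 4 were measured, with summed levels of 366 to 469.7 CPM in Ly49G+ and 253.7 to 445 in Ly49I+, and Cd79a was not analysed here. Of the 4, 1 was called higher in Ly49G+, as were 1.82% of all genes. This count was 0 without Ly49G+ replicate 2 or 3, and 2 with the replicate block or without Ly49I+ replicate 2. Of 9 plasmacytoid dendritic cell markers 2 were measured (321.6 to 361.9 and 338.2 to 437.6 CPM). Of 14 neutrophil, mast cell and basophil markers only the chymase gene Cma1 was measured, of 10 stromal and endothelial markers 1 was (110.2 to 122.7 and 120.1 to 129 CPM), and of 10 erythroid and 6 platelet markers 0 were.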
